A study of Mus musculus with 9 samples.

Results

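The genes described here are the cyclins A to L with a numbered name and the numbered cyclin-dependent kinases (CDKs) of the mouse, measured in the testes of 9 C57BL/6 males. They were chosen by name and not by level: of 38674 genes in the table, 21019 of them protein coding, 33 protein-coding genes carried such a name, 14 of them cyclins and 19 of them CDKs. The animals were 3 Pfn3+/+ (WT), 3 Pfn3+/– (Het) and 3 Pfn3–/– (KO) males, with no treatment beyond the genotype. The mutant alleles were CRISPR/Cas9 deletions in the single coding exon of Pfn3, the gene of a testis-specific profilin of developing spermatids; which of the study's deletion lines gave the sequenced animals, and their ages, are not given in the labels. RNA came from whole testis freed of its capsule, so every value is a mixture of germ cells at all stages and of somatic cells.

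A cyclin binds a CDK and switches it on, and the pair phosphorylates the proteins that carry a cell from one phase of the cycle to the next. D-type cyclins act with Cdk4 and Cdk6 in G1, E-type cyclins with Cdk2 at the entry into S phase, and A-type and B-type cyclins with Cdk2 and Cdk1 in S phase and M phase. A second branch of the family does not drive division: Cdk7, Cdk8, Cdk9, Cdk12, Cdk13 and Cdk19 act on RNA polymerase II and its partners, and Cdk11 with the L-type cyclins acts in pre-mRNA splicing. In the testis, Ccna1 (cyclin A1) is restricted to male germ cells, and mouse spermatocytes without it, or without Cdk2, do not complete meiosis.

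Promoter sequence is shown for 7 genes, so that the letters upstream of the cell-cycle members can be seen beside those of members of the transcription and splicing branch whose KO and WT animals separated (Cdk10, Ccnl2 and Cdk7; Cdk11b, Cdk12 and Ccnl1 have no such stretch free of exons). The sequences are from RefSeq, build GRCm38.p6, where 26 of the 33 genes were matched. Each is the nearest stretch of 100 bases upstream of the RefSeq start that holds no exon of the GENCODE annotation, written 5′ to 3′ on the strand of the gene. Capitals mark matches, on either strand, to CCAAT (the letters bound by NF-Y), TTTGAA or TTTAAA (the core of the cell cycle genes homology region) and CCGGAA (the core of many ETS sites). Ccna1 is at chr3:55055056-55055155 (minus strand), Ccnb1 at chr13:100786571-100786670 (minus), Ccnb2 at chr9:70421555-70421654 (minus), Cdk1 at chr10:69352939-69353038 (minus), Cdk10 at chr8:123224741-123224840 (plus), Cdk7 at chr13:100730943-100731042 (minus) and Ccnl2 at chr4:155812389-155812488 (plus). The annotation used for gene spans gives Ccna1 further transcripts that start upstream of the RefSeq start, so its stretch is upstream of the RefSeq start but lies inside an intron of those.
Ccna1: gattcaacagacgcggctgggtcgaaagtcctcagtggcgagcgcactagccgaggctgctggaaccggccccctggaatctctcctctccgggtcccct
Ccnb1: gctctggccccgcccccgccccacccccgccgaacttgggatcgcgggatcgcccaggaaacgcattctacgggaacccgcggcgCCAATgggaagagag
Ccnb2: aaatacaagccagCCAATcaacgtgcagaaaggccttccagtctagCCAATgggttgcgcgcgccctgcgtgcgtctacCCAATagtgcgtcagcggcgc
Cdk1: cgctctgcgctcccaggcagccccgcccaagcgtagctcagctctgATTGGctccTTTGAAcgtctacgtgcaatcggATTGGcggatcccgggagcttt
Cdk10: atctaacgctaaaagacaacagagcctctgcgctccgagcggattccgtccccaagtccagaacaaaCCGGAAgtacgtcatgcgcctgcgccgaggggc
Cdk7: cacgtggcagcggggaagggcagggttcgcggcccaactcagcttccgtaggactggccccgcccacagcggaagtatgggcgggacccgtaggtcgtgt
Ccnl2: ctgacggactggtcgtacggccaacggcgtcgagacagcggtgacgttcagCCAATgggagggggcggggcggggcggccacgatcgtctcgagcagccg

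The stretches of Ccna1 and Cdk7 held no match. That of Ccnb2 held 3 matches to CCAAT, and that of Cdk1 held 2, with a TTTGAA between them. Over the whole 250 bases upstream of each start, CCAAT was found in 11 of 26 members (42.3%) against 33.8% of all 32851 promoters of the table. Members were counted with 1 promoter per gene, whereas the set of all promoters was not reduced to 1 per gene. TTTGAA was found in 3 of 26 members (Ccnb2, Cdk1 and Cdk16; 11.5%) against 16.0% of all promoters, and TTTAAA in 3 of 26 (Ccnb1, Ccnb3 and Ccne1) against 12.1%. CCGGAA was found in 9 of 26 members (34.6%), namely Ccng2, Ccnl2, Cdk2, Cdk7, Cdk9, Cdk10, Cdk11b, Cdk13 and Cdk20, against 12.0% of all promoters. The median GC content was 62.2% in the members' windows and 52.4% in all. These are matches of letters only, and none of the samples measured binding.

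Each library was read from the 3′ end of polyadenylated transcripts (QuantSeq), and the values are gene counts divided by one size factor per animal, called normalized counts below. The counts of an animal summed to between 3375546 and 4287335, and a count of 1, called 1 read here, was worth 0.859 to 1.24 normalized counts. The counts came from StringTie assemblies, and whether a count of 1 stands for 1 sequenced read was not tested. A count of 3 reads, taken as the detection limit for counting error alone, was worth 2.58 to 3.71. Pfn3 had 373 to 592 normalized counts in WT, 136 to 339 in Het and 74.7 to 279 in KO, every KO animal below every WT animal (log2 fold change −1.41, standard error (SE) 0.52, limma adjusted p = 0.610); reads near the 3′ end can lie outside the deleted stretch, so this is no check of the labels. Some libraries stood apart. Of 8591 genes at 30 normalized counts or more in at least 8 of 9 animals, WT replicate 1 had a value more than 4 times below the next lowest animal in 335, Het replicate 1 in 105, KO replicate 2 in 40 and the other animals in 8 to 24. The median correlation of log values with the other animals was 0.778 for WT replicate 1, 0.806 for Het replicate 1 and 0.841 to 0.881 for the rest. Where a fold change of a member named with values rests on WT replicate 1 or Het replicate 1, it is given with and without that animal.

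Spermatid markers had lower sums in every KO animal than in every WT animal, while the sums of earlier germ cells overlapped. The 4 elongating spermatid markers summed to 233289 to 249362 normalized counts in WT, 179063 to 214894 in Het and 123388 to 199672 in KO, and the 5 round spermatid markers to 6211 to 7871 in WT, 5627 to 6337 in Het and 2942 to 5341 in KO. The round spermatid markers did not all fall: 3 were lower and 2 higher in KO than in WT. Crem and Spaca1 were the higher ones (log2 fold changes 0.11 and 0.13), with overlapping KO and WT animals. Only for Tssk1 and Tssk2 in this list did every KO animal lie below every WT animal. The 6 spermatocyte markers summed to 7682 to 9366 in WT, 7588 to 9301 in Het and 8095 to 10565 in KO, and within this list Sycp1, Sycp2 and Sycp3, genes of the meiotic chromosome axis, were higher in every KO than in every WT animal (log2 fold changes 0.76, 0.65 and 0.71, limma adjusted p = 0.583, 0.610 and 0.610), whereas Hspa2 was at 98.3 in Het replicate 1, at 102 in KO replicate 2 and at 2476 or more in the other animals. The 6 spermatogonial markers summed to 195 to 384, 177 to 279 and 179 to 235. The Sertoli cell sum was 2464 to 3846 in WT, 2388 to 3226 in Het and 2230 to 5022 in KO, with Amh at 0 throughout, and the Leydig cell sum was 1933 to 3402, 1343 to 2109 and 1756 to 2652. Within the Sertoli cell list, Wt1 had 9.90 to 29.0 in WT, 116 to 180 in Het and 32.2 to 199 in KO, every Het and KO animal above every WT animal. Its log2 fold change was 3.07 in Het versus WT (limma adjusted p = 0.544) and 2.48 in KO versus WT (adjusted p = 0.610). Of the 5 tested Sertoli cell markers, 4 were higher and 1 lower in KO than in WT. Macrophage markers summed to 97.3 to 182 and erythrocyte markers to 597 to 993 over all animals. Of the 5 epididymis markers, Adam7, Lcn5, Lcn8 and Defb1 were at 0 in every animal and Crisp1 was at most 7.72. In whole testis, fewer cells of a type and less RNA per cell cannot be told apart, and the part of these marker levels in the results below was not tested.

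The question put to the 33 genes was whether their mRNA differed between KO, Het and WT testes. It was tested with limma on log2(normalized count + 1), on which scale all fold changes below stand, over every gene with 10 or more normalized counts in 3 or more of the 6 animals compared, and a gene was called at an adjusted p under 0.05 and an absolute log2 fold change over 1.5. Of the 33, 31 were tested in each comparison. Ccnb3, a meiotic B-type cyclin, was at 0 in 7 animals, at 4.84 in KO replicate 2 and at 3.57 in KO replicate 3, and Cdk9, the kinase of the elongation factor P-TEFb, lay between 2.48 and 7.72, so both stayed below the filter.

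No cyclin or CDK was called in any comparison. In KO versus WT, 0 of 31 members were called, where 0.0352% of all 14223 genes tested were (5 genes). The smallest adjusted p among the members was 0.522. At an unadjusted p under 0.05, 5 of 31 members passed with limma (Cdk11b, Ccnd3, Ccnl1, Cdk10 and Cdk18, all lower in KO), beside 8.07% of all genes, and 3 members passed with edgeR and 3 with DESeq2 on the recovered reads. That count was 3 without WT replicate 1 or KO replicate 3, 2 when KO replicate 2 or either of WT replicates 2 and 3 was left out, 1 without KO replicate 1, and 3 with all 9 animals in 1 fit. In Het versus WT, 0 of 31 members were called beside 0.0% of 14216 genes, and 2 of 31 (Ccnd3, lower, and Cdk17, higher) had an unadjusted p under 0.05 beside 3.34%. edgeR and DESeq2 each gave 1 such member in that comparison, and limma gave 0 without WT replicate 1, Het replicate 1 or Het replicate 3, 1 without WT replicate 2 or WT replicate 3, and 4 without Het replicate 2. In KO versus Het, 0 of 31 were called beside 0.0558% of 14343 genes, and 2 of 31 (Ccnl2 and Cdk20, both higher in KO) had an unadjusted p under 0.05 beside 3.56%. For that comparison edgeR gave 2 such members and DESeq2 gave 1, while limma gave 0 without any 1 of the KO animals, without Het replicate 2 or with all 9 animals in 1 fit, and 3 without Het replicate 3. The 3 comparisons share animals, so they are not independent of each other.

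**Figure D1:**
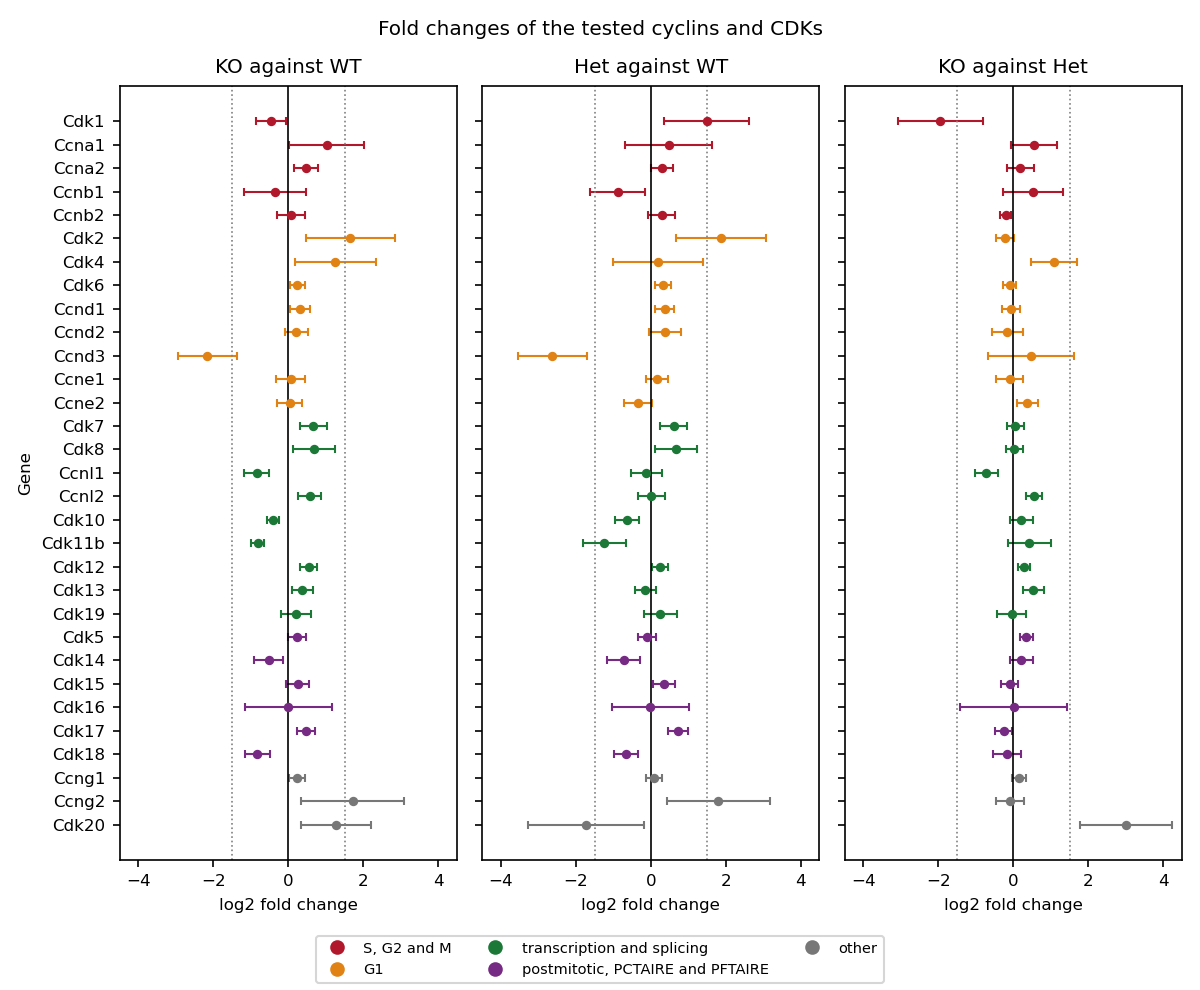
Log2 fold changes of the 31 tested cyclins and CDKs (points) with their standard errors (bars) in each comparison of 3 animals against 3, coloured by role, with dotted lines at the log2 fold change of 1.5 used for calls. Ccnd3, Ccng2 and Cdk2 lie past a dotted line in KO versus WT, each with an SE of 0.79 or more, and no member was called.

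More members had a higher than a lower mean in KO, and WT replicate 1 moved this count. In KO versus WT, 22 of 31 members had a higher mean log2 value in KO and 9 a lower one, with a median log2 fold change of 0.24, where 51.4% of all genes tested were higher and the median was 0.02. Without WT replicate 1, 17 were higher and 14 lower, and the median was 0.08. WT replicate 1 was the lowest of the 9 animals for 12 of the 31 members (Ccna1, Ccna2, Ccnb2, Ccng2, Ccnl2, Cdk2, Cdk4, Cdk6, Cdk7, Cdk8, Cdk17 and Cdk19), while every other animal was the lowest for 1 to 4. It was also the highest for 6 (Ccnb1, Ccnd3, Ccne2, Cdk11b, Cdk14 and Cdk18), where the other animals were the highest for 0 to 7. In Het versus WT, 19 were higher and 12 lower with a median of 0.18 (0.01 and 50.5% higher over all genes), and without WT replicate 1 they were 15 and 16 with a median of −0.01. In KO versus Het, 18 were higher and 13 lower with a median of 0.05 (0.00 and 49.7% higher over all genes).

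The members also varied widely within a genotype. With values under 10 set to 10, the highest animal exceeded 4 times the lowest animal of the same genotype in at least 1 genotype for 10 of 31 members (Ccna1, Ccnb1, Ccnd3, Cdk1, Cdk2, Cdk4, Cdk8, Cdk11b, Cdk16 and Cdk20), beside 17.7% of 14731 genes.

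**Figure D2:**
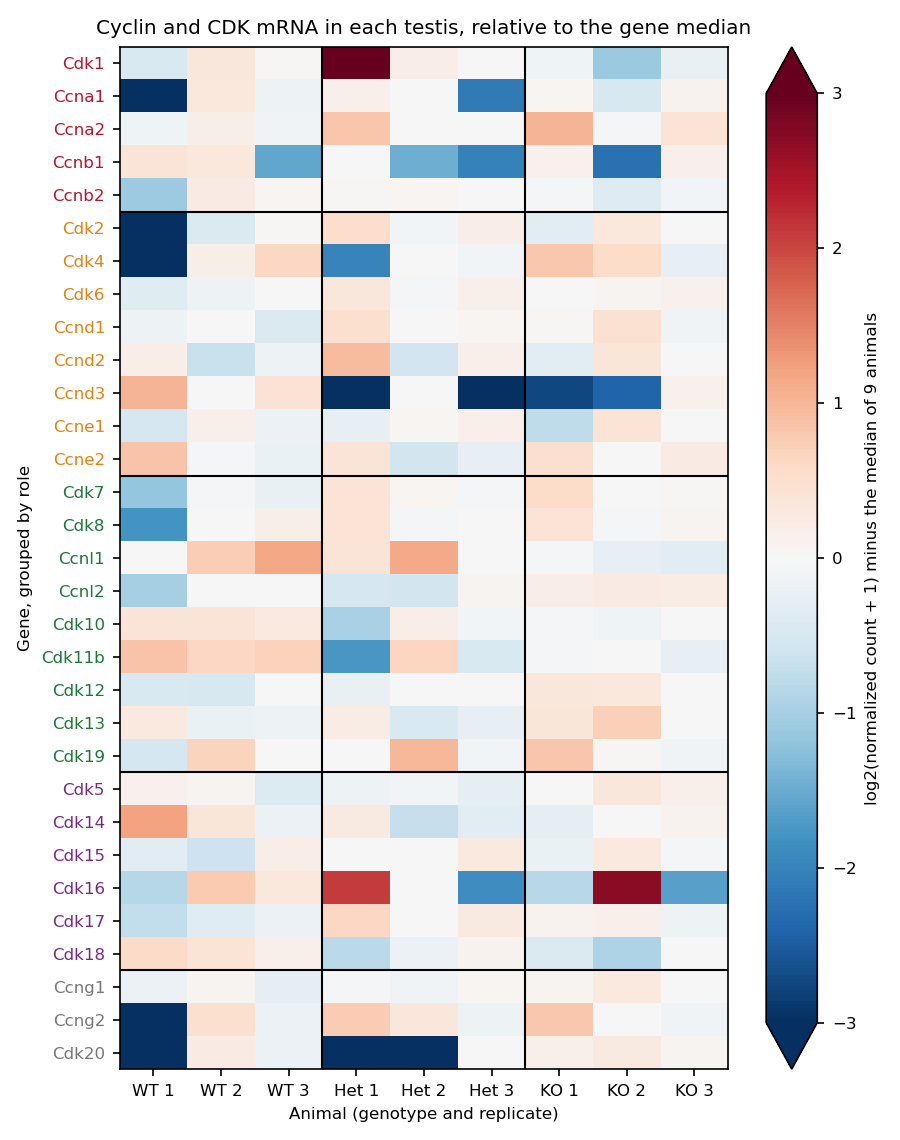
Heat map of log2(normalized count + 1) minus the median of the 9 animals for the 31 tested members (rows, grouped by role) in each animal (columns); red is above and blue below the gene's median, and the colours stop at 3. WT replicate 1 is the lowest animal for 12 rows, among them Ccna1, Cdk2, Cdk4, Ccng2 and Cdk8, and the highest for 6. The deepest colours sit in single animals or, as for Cdk20 and Ccnd3, in several animals of a row, rather than in whole genotypes.

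Among the cyclins and kinases of S, G2 and M phase, 0 of 5 tested members were called in any comparison, and 3 were higher and 2 lower in KO than in WT. Ccna1 had 49.5, 729 and 523 normalized counts in WT, 653, 585 and 134 in Het and 608, 417 and 633 in KO. WT replicate 1 and Het replicate 3 were low and the other 7 animals lay between 417 and 729, so that the genotypes overlapped. KO differed from WT by a log2 fold change of 1.02 (SE 0.995, limma adjusted p = 0.695), and −0.18 without WT replicate 1. An annotated antisense gene at the Ccna1 locus (chromosome 3 from 55045469 to 55055501, minus strand), 4931419H13Rik, had 0 in Het replicate 1 and 27.1 to 63.1 in the other animals.

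Ccnb2 (cyclin B2), the B-type cyclin bound to the Golgi, was also low in WT replicate 1. It had 284, 710.0 and 623 normalized counts in WT, 612, 627 and 600.0 in Het and 572, 458 and 571 in KO. Every KO animal lay below every Het animal, and WT replicate 1 lay below them all. For KO versus WT this gave a log2 fold change of 0.08 (SE 0.37, limma adjusted p = 0.942), and −0.32 without WT replicate 1, where every KO animal also lay below both remaining WT animals.

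Ccnb1 (cyclin B1), the partner of Cdk1 at entry into M phase, was split within every genotype. Its values were 368, 349 and 94.6 in WT, 281, 101 and 67.7 in Het and 307, 59.0 and 314 in KO. Of the 9 animals, 5 lay between 281 and 368 and 4 between 59.0 and 101, with animals of each genotype on both sides. KO lay below WT by a log2 fold change of −0.36 (SE 0.83, limma adjusted p = 0.868), which was −0.02 without WT replicate 1 and 0.43 without KO replicate 2. Of the 584 stretches of 50 bases in the last 300 bases of its protein-coding transcripts, 128 also occur in the processed pseudogene Ccnb1-ps and 124 in Gm8416, so its reads could be shared with copies that the authors removed from the table. Such sharing of reads was not tested. In all, 7 of 33 members share a stretch with another annotated gene. Among these are Cdk8 (170 of 796 stretches, pseudogene Gm7107), Cdk4 (251 of 656, other strand of Tspan31) and Ccne2 (161 of 355, other strand of Ints8).

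Cdk1, the kinase of M phase, was set apart in a single animal. It had 17.3, 30.9 and 25.1 normalized counts in WT, 456, 27.9 and 24.3 in Het and 22.3, 10.6 and 20.6 in KO. Het replicate 1 was far above the other 8 animals. Every KO animal lay below every Het animal, though KO replicate 1 and Het replicate 3 were close. Fitted log2 fold changes were −1.95 (SE 1.14, limma adjusted p = 0.973) in KO versus Het, which was −0.59 without Het replicate 1 and −3.22 with edgeR, and −0.46 (SE 0.41, adjusted p = 0.674) in KO versus WT. Ccna2 (cyclin A2), the A-type cyclin of dividing cells, had 81.7, 101 and 83.04 in WT, 159, 89.4 and 88.9 in Het and 183, 85.1 and 119.8 in KO, and its genotypes overlapped (log2 fold change in KO versus WT 0.48, SE 0.32, limma adjusted p = 0.643).

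Among the 8 G1 members, 0 were called in any comparison, and 7 had a higher and 1 a lower mean in KO than in WT. The lower one was Ccnd3 (cyclin D3), which had 187, 91.6 and 125 normalized counts in WT, 8.50, 91.3 and 9.52 in Het and 12.9, 16.4 and 100.1 in KO. Het replicates 1 and 3 and KO replicates 1 and 2 lay at 16.4 or below, while Het replicate 2 and KO replicate 3 lay among or next to the WT animals. Every Het animal was below every WT animal, if barely so for Het replicate 2, and KO and WT overlapped. The log2 fold change was −2.16 in KO versus WT (SE 0.79, unadjusted p = 0.0320, limma adjusted p = 0.610) and −2.63 in Het versus WT (SE 0.92, unadjusted p = 0.0276, adjusted p = 0.779). The 3′ end of Ccnd3 (chromosome 17 from 47505051 to 47599691, plus strand) overlaps Bysl on the other strand, which had 126 to 287 normalized counts, and 108 of the 1749 stretches of its transcript ends also occur in the pseudogene Ccnd3-ps. Whether strand was used in counting is not given in the sources used here.

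Cdk2, the kinase of S phase that also sits on meiotic telomeres, had 7.43, 147 and 203 normalized counts in WT, 287, 187 and 228 in Het and 159, 247 and 199 in KO. WT replicate 1 was far below the other 8 animals, which lay between 147 and 287 and overlapped between the genotypes. In KO versus WT, limma gave a log2 fold change of 1.66 (SE 1.19, limma adjusted p = 0.648), and 0.20 without WT replicate 1; in Het versus WT it was 1.87 (SE 1.20, adjusted p = 0.779), and 0.42 without that animal. Pmel, which overlaps Cdk2 on the other strand, was not low in WT replicate 1 (436, within a range of 310.1 to 817 over all animals).

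Cdk4, the partner of the D-type cyclins, was also low in WT replicate 1. It had 2.48, 42.4 and 57.9 normalized counts in WT, 8.50, 37.2 and 34.9 in Het and 66.1, 55.1 and 31.3 in KO. The value of WT replicate 1 is below the detection limit of 3.71 for that library, Het replicate 1 was the next lowest, and the other 7 animals overlapped. For Cdk4 the log2 fold change came to 1.26 in KO versus WT (SE 1.09, limma adjusted p = 0.670) and −0.03 without WT replicate 1.

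The other G1 members overlapped between KO and WT. Ccnd1, the cyclin that answers growth factors, ranged from 38.6 to 52.1 in WT, 52.1 to 73.7 in Het and 48.3 to 71.6 in KO, and every Het animal lay above every WT animal, though the nearest pair was almost equal. All 251 stretches of its transcript ends occur on the other strand of LTO1. Ccnd2, which is used by dividing spermatogonia and somatic cells, ranged from 212 to 386 in WT, 224 to 649 in Het and 266 to 431 in KO. Ccne1 and Ccne2, the cyclins of entry into S phase, had 19.8 to 45.5 and 108 to 286 over all animals, and Cdk6 had 85.4 to 142.

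**Figure D3:**
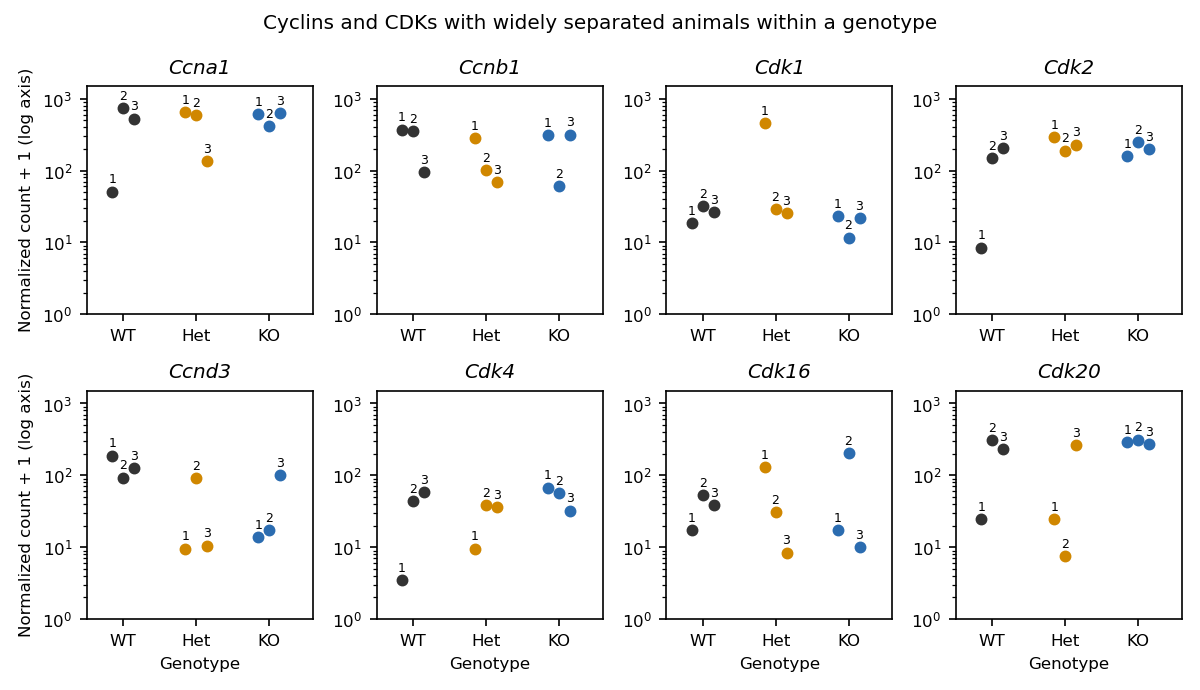
Normalized count + 1 (log axis) of 8 cyclins and CDKs in each animal, by genotype; each point is 1 animal and the digit is its replicate number. Ccna1, Cdk2, Cdk4 and Cdk20 are low in WT replicate 1, Cdk1 is high in Het replicate 1 alone, and Ccnb1, Ccnd3 and Cdk16 have high and low animals within a genotype.

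In the transcription and splicing branch, 3 of 9 tested members had an unadjusted p under 0.05 with limma in KO versus WT, beside 8.07% of all genes tested. The total of 5 such members moved with the method and with the animals left out, as given above. Of the 9 tested members of this branch, 6 had a higher and 3 a lower mean in KO, and 0 were called. The 3 lower ones were Cdk11b, Ccnl1 and Cdk10, and the 3 whose KO animals all lay above WT were Ccnl2, Cdk12 and Cdk7. Over all genes tested, every KO animal was higher than every WT animal in 9.41% and lower in 10.5%.

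Cdk11b, the kinase that pairs with L-type cyclins and acts in splicing, had the smallest p of all members in KO versus WT. It had 600.5, 506 and 533 normalized counts in WT, 97.3, 516 and 242 in Het and 321, 331 and 279 in KO. All KO animals lay below all WT animals, with the WT and KO animals each close together, while the Het animals reached from below KO to the WT range. The log2 fold change was −0.82 in KO versus WT (SE 0.17, unadjusted p = 0.00317, limma adjusted p = 0.522) and −0.75 without WT replicate 1 (adjusted p = 0.349). DESeq2 gave Cdk11b a log2 fold change of −0.81 with an adjusted p of 0.0195, which passed the p threshold but not the fold threshold, and in 1 limma fit of all 9 animals its unadjusted p was 0.144. Het differed from WT by −1.24 on the log2 scale (SE 0.58, limma adjusted p = 0.779), by −0.62 without Het replicate 1 and by −1.82 without Het replicate 2. It lies on chromosome 4 from 155624854 to 155649938, plus strand.

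The L-type cyclins, which bind Cdk11 and locate to splicing speckles, went in opposite directions in their means. Ccnl1 had 102, 169 and 227 normalized counts in WT, 134, 223 and 102 in Het and 97.1, 86.1 and 79.5 in KO. Every KO animal lay below every WT and every Het animal, though KO replicate 1 was close to WT replicate 1 and Het replicate 3. The fitted log2 fold change came to −0.84 in KO versus WT (SE 0.33, unadjusted p = 0.0409, limma adjusted p = 0.610), −1.16 without WT replicate 1 (adjusted p = 0.264), and −0.73 in KO versus Het (SE 0.31, adjusted p = 0.973). Gm37305, antisense to Ccnl1, had 40.5 to 93.6 normalized counts.

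Ccnl2 had 70.6, 142 and 140.0 normalized counts in WT, 99.2, 96.8 and 151 in Het and 164, 169 and 166 in KO. Every KO animal lay above every other animal, and the KO animals differed from each other by less than those of either other genotype. In log2 fold change, Ccnl2 stood at 0.57 in KO versus WT (SE 0.32, limma adjusted p = 0.629), 0.24 without WT replicate 1, and 0.55 in KO versus Het (SE 0.22, unadjusted p = 0.0443, adjusted p = 0.973).

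Cdk10, a kinase activated by cyclin M, had 404, 404 and 376 normalized counts in WT, 158, 354 and 293 in Het and 295, 283 and 308 in KO. All KO and all Het animals lay below all WT animals. For Cdk10 the log2 fold change came to −0.42 in KO versus WT (SE 0.16, unadjusted p = 0.0409, limma adjusted p = 0.610) and −0.63 in Het versus WT (SE 0.33, adjusted p = 0.779), the latter −0.29 without Het replicate 1. Spata2l, which overlaps Cdk10 on the other strand, had 38.6 to 68.1 in the WT, 29.3 to 51.2 in the Het and 20.6 to 23.2 in the KO animals. On the strand of Cdk10, Gm20388 overlaps it by 7409 bases and Gm45842 by 1452 bases. Neither is among the genes with values, and a sharing of reads with them was not tested.

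Cdk12, which phosphorylates elongating RNA polymerase II, had 156, 154 and 214 normalized counts in WT, 186, 218 and 216 in Het and 273, 269.9 and 216 in KO. Every KO animal lay above every WT animal, though KO replicate 3 and WT replicate 3 were close, and Het lay among both. Between KO and WT this was a log2 fold change of 0.54 (SE 0.22, unadjusted p = 0.0510, limma adjusted p = 0.610). Cdk7, the kinase of TFIIH that also activates other CDKs, had 42.1, 93.6 and 82.1 in WT, 128, 99.6 and 92.1 in Het and 140.0, 95.8 and 97.4 in KO, with every KO animal above every WT animal (log2 fold change 0.66, SE 0.36, limma adjusted p = 0.629, and 0.32 without WT replicate 1). The values of Cdk7 in KO replicate 2 and WT replicate 2 were close.

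The remaining members of the branch overlapped between KO and WT. The Mediator kinase Cdk8 had 12.4 in WT replicate 1 and 43.5 to 61.0 in the other animals. Its paralog Cdk19 had 57.0 to 166 over all animals, and its antisense gene Cdk19os had 203 to 227 in WT, 162 to 235 in Het and 113 to 159 in KO. Cdk13, the paralog of Cdk12, had 55.0 to 78.0 in WT, 45.6 to 73.7 in Het and 63.5 to 104 in KO.

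**Figure D4:**
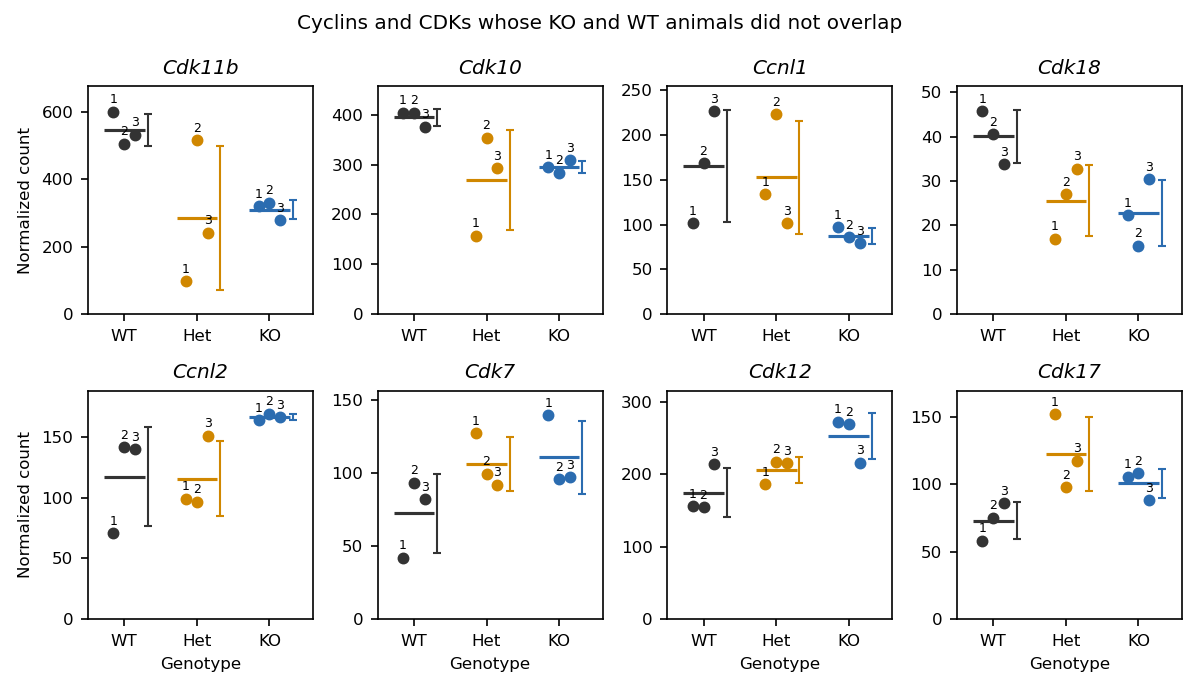
Normalized counts of the 8 members whose KO and WT animals did not overlap, by genotype; points are animals with their replicate numbers, horizontal lines are means and bars are 1 SD of 3 animals. Cdk11b, Cdk10, Ccnl1 and Cdk18 are lower and Ccnl2, Cdk7, Cdk12 and Cdk17 higher in KO than in WT, and the Het animals reach into the range of another genotype in each. Over all genes tested, every KO animal was lower than every WT animal in 10.5% and higher in 9.41%.

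Of the kinases of the PCTAIRE and PFTAIRE families and Cdk5, which act mostly outside the cell cycle, 0 of 6 were called in any comparison. Cdk18 had 45.8, 40.5 and 33.8 normalized counts in WT, 17.0, 27.0 and 32.8 in Het and 22.3, 15.5 and 30.4 in KO. Every Het and KO animal lay below every WT animal, though Het replicate 3 and WT replicate 3 were close. For Cdk18 the log2 fold change came to −0.83 in KO versus WT (SE 0.33, unadjusted p = 0.0431, limma adjusted p = 0.610) and −0.66 in Het versus WT (SE 0.33, adjusted p = 0.779), the latter −0.41 without Het replicate 1. Cdk17 had 58.2, 75.2 and 85.9 in WT, 152, 97.8 and 117 in Het and 106, 108 and 88.5 in KO. Every Het and KO animal lay above every WT animal, though KO replicate 3 and WT replicate 3 were close. The log2 fold change of Cdk17 was 0.73 in Het versus WT (SE 0.27, unadjusted p = 0.0338, limma adjusted p = 0.779) and 0.47 in KO versus WT (SE 0.24, adjusted p = 0.615). The value in Het versus WT was 0.58 without WT replicate 1 and 0.56 without Het replicate 1.

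Cdk16, whose loss in mice is known to impair spermatid differentiation, did not follow the genotype. It had 16.1, 52.1 and 37.7 normalized counts in WT, 130.4, 29.8 and 7.41 in Het and 16.3, 201 and 8.94 in KO. Het replicate 1 and KO replicate 2 were high, and the genotypes overlapped. The log2 fold change in KO versus WT was 0.00 with limma (SE 1.16, adjusted p = 0.999), 1.12 with edgeR and 1.11 with DESeq2, and it lay between −1.32 (without KO replicate 2) and 0.85 (without KO replicate 3) with 1 animal left out. Cdk5, the kinase of postmitotic neurons, had 68.6 to 99.0 in WT, 75.1 to 85.7 in Het and 91.0 to 116 in KO, with every KO animal above every Het animal. Cdk14 and Cdk15 ranged from 27.0 to 104 and from 27.0 to 51.9.

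Of the other members, 0 of 3 were called, and the means of all 3 were higher in KO than in WT. Cdk20, a kinase linked to ciliary signalling, had 23.5, 309 and 229.8 normalized counts in WT, 23.6, 6.52 and 259 in Het and 287, 314 and 273 in KO. WT replicate 1, Het replicate 1 and Het replicate 2 were low, and the other 6 animals lay between 229.8 and 314. Limma gave log2 fold changes of 3.00 in KO versus Het (SE 1.22, unadjusted p = 0.0468, limma adjusted p = 0.973), −1.73 in Het versus WT (SE 1.54, adjusted p = 0.781), and 1.28 in KO versus WT (SE 0.94, adjusted p = 0.649), the last of which was 0.13 without WT replicate 1. KO versus Het was 2.72 without Het replicate 1, 1.87 without Het replicate 2 and 4.42 without Het replicate 3, and Het versus WT was −2.88 without WT replicate 1, −1.45 without Het replicate 1, −0.59 without Het replicate 2 and −3.15 without Het replicate 3. The antisense gene 1700015C15Rik, which overlaps Cdk20 by 89 bases, was at 0 in WT replicate 1 and at 40.6 to 62.7 in the other animals.

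Ccng2, a cyclin linked to arrest of the cycle, had 0, 36.7 and 23.2 normalized counts in WT, 45.4, 33.5 and 23.3 in Het and 46.4, 26.1 and 24.1 in KO. WT replicate 1 was the only animal at 0, below the 3.71 taken as the detection limit for that library, and the other 8 animals overlapped. For Ccng2 the log2 fold change came to 1.72 in KO versus WT (SE 1.37, limma adjusted p = 0.661) and 1.81 in Het versus WT (SE 1.38, adjusted p = 0.779), and without WT replicate 1 these were 0.08 and 0.17. Ccng1, a target of p53, had 45.4 to 66.8 over all animals.

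**Figure D5:**
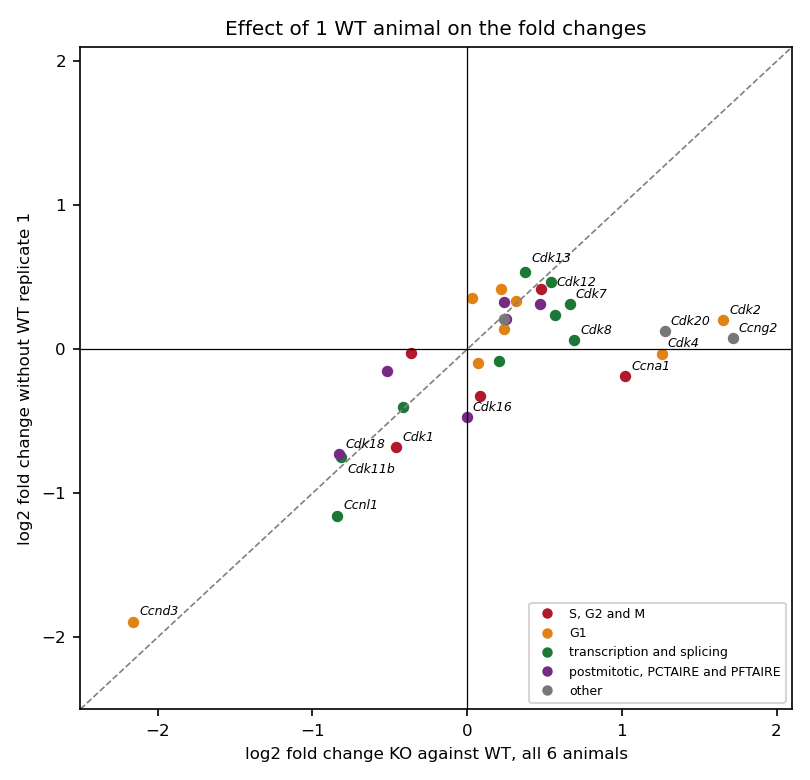
Log2 fold change in KO versus WT of the 31 tested members with all 6 animals (horizontal axis) and without WT replicate 1 (vertical axis), coloured by role; the dashed line marks equal values. Ccng2, Cdk2, Cdk20, Cdk4 and Ccna1 lie above 1 with all animals and between −0.18 and 0.20 without it, while Ccnd3, Ccnl1, Cdk11b and Cdk18 lie below 0 on both axes.

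Of the 6 members with an absolute log2 fold change over 1 in KO versus WT (Ccna1, Ccnd3, Ccng2, Cdk2, Cdk4 and Cdk20), 1 stayed over 1 without WT replicate 1, Ccnd3. The sign changed in 5 of 31 members (Ccna1, Ccnb2, Ccne1, Cdk4 and Cdk19).

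Counted over the 31 members, 4 had every KO animal above every WT animal (Ccnl2, Cdk7, Cdk12 and Cdk17), beside 9.41% of all genes tested, and 4 had every KO animal below every WT animal (Ccnl1, Cdk10, Cdk11b and Cdk18), beside 10.5%. Without WT replicate 1 these counts were 6 and 6, beside 14.6% and 17.5%. In Het versus WT, 2 members lay wholly above (Ccnd1 and Cdk17) beside 6.76% of all genes, and 3 wholly below (Ccnd3, Cdk10 and Cdk18) beside 6.49%. In KO versus Het, 3 lay wholly above (Ccnl2, Cdk5 and Cdk20) beside 5.12%, and 3 wholly below (Ccnb2, Ccnl1 and Cdk1) beside 4.9%. Without Het replicate 1, the counts above and below were 3 and 6 in Het versus WT, beside 10.2% and 9.40%, and 6 and 3 in KO versus Het, beside 12.6% and 12.9%. Without WT replicate 1, Het versus WT gave 2 and 4, beside 11.2% and 11.6%.

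The other genes of the pathway were given by lists, and no gene of any list was called in any comparison. In KO versus WT, 0 of 11 tested other cyclins, 0 of 5 CDK inhibitors, 0 of 5 activators and cofactors, 0 of 5 kinases and phosphatases acting on CDKs, and 0 of 9 targets and activators of the anaphase-promoting complex (APC) were called. At an unadjusted p under 0.05, 1 gene of these lists passed, beside 8.07% of all genes tested. It was Fzr1, an activator of the APC. Fzr1 had 460 to 631 in WT, 88.8 to 398 in Het and 133 to 320.2 in KO. From WT to KO the log2 fold change was −1.30 (SE 0.35, limma adjusted p = 0.610). Every Het animal also lay below every WT animal, with a log2 fold change of −1.33 in Het versus WT (SE 0.55, limma adjusted p = 0.779). In KO versus Het, 1 passed, beside 3.56% of all genes tested. It was Rbl1, a pocket protein that binds E2F factors. Rbl1 had 16.9 to 33.1 in Het and 6.77 to 10.7 in KO (log2 fold change −1.26, SE 0.40, limma adjusted p = 0.973). The WT animals had 0, 11.6 and 20.3 and overlapped KO. In KO versus WT the log2 fold change of Rbl1 was 0.57 (SE 1.19, limma adjusted p = 0.853). In Het versus WT, 0 passed, beside 3.34% of all genes tested, and Fzr1 just missed with an unadjusted limma p of 0.05003.

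Several of these partners showed the same kind of separation between animals. Cdc25a, the phosphatase that activates Cdk2, had 7.72 in WT replicate 3 and 5.36 in KO replicate 3, and 258 to 397 in the other 7 animals. Pkmyt1, the kinase that inhibits Cdk1, was at 0 in Het replicate 1 and KO replicate 3, and at 99.0 to 182 elsewhere. Cks2, a CDK-binding subunit needed for meiosis, had 92.9 in WT replicate 1, 330.2 and 345 in the other WT animals and 386 to 417 in KO, every KO animal above every WT animal. The Het animals had 663, 305 and 327 and reached from the WT range to above KO. Rb1, the retinoblastoma protein gene, was listed at 0 in all 9 animals.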

How the data were processed

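Testis RNA of 3 WT, 3 Het and 3 KO mice was sequenced as QuantSeq 3′ libraries. The authors trimmed the reads (Trim Galore 0.4.5), mapped them to GRCm38 by HISAT2 2.1, obtained gene counts from StringTie 1.3.3 assemblies and removed pseudogenes. The deposited values are of the unit signal: gene counts that the authors divided by 1 size factor per animal. In each animal 100% of nonzero values were whole multiples of the smallest nonzero value (tolerance 0.01). Whole counts were recovered from this and are called recovered reads.

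Members and lists were chosen with earlier results of these data known. Of the 33 members, 31 carry names of assembled loci, and coordinates are those of the matched Ensembl gene. Pairs of genotypes were compared with limma 3.58.1 (R 4.3.3; eBayes with trend) on log2(value + 1), with Benjamini-Hochberg adjustment over all genes tested; the cutoffs follow the study's methods. The labels do not tie the sequenced animals to litters, and the fits took the animals as independent, which was not tested. The p-values set a difference between genotypes against the spread between these animals. Alternatives were edgeR 4.0.16 and DESeq2 1.42.0 on recovered reads, TMM factors, pseudocounts of 0.5 and 5, no filter, a mean of at least 30, all 9 samples in 1 fit, a replicate block and each animal left out. The functions were tested on simulated data. Leaving out WT replicate 1 or Het replicate 1 in the counts of non-overlapping animals was added after seeing the data.

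Animals are named by genotype and replicate number. Values of every animal are given for Ccna1, Ccna2, Ccnb1, Ccnb2, Cdk1 and Cdk2, for the 6 members with the smallest p in KO against WT and the 3 smallest in each other comparison, and for members called or with an absolute log2 fold change over 1.5. Cdk4, Cdk7 and Cdk16 fall outside this rule and were chosen after their values were seen, as were the pathway genes named with values and the genes that overlap a member. Spdya of the pathway lists was not analysed here. Figures were drawn with matplotlib 3.10.9.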

Additional observations from a re-analysis of the deposited data

How the results depend on the processing

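The count of cyclins and CDKs called was 0 in all 3 comparisons under every alternative run, and the members' median log2 fold change ranged from 0.08 to 0.36 in KO against WT, from −0.01 to 0.23 in Het against WT and from −0.02 to 0.16 in KO against Het. The count over all genes, against which the members are read, moved more. In KO against WT it was 5 with limma, 104 with DESeq2, 3 with all 9 samples in 1 fit, and 0 to 49 with 1 animal left out (49 without WT replicate 1). In Het against WT it was 0 with limma, 33 with DESeq2, 1 with TMM factors, 2 with a pseudocount of 5, 3 with no filter, 1 with a mean of at least 30, 3 with all 9 samples in 1 fit, and 0 to 3 with 1 animal left out (3 without Het replicate 2). In KO against Het it was 8 with limma, 46 with DESeq2, 5 with a mean of at least 30, 4 with all 9 samples in 1 fit, and 0 to 39 with 1 animal left out (39 without Het replicate 2). The cause of these moves was not tested.

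With the replicate number as a block, the counts were 0 in KO against WT, 0 in Het against WT and 0 in KO against Het. Same-numbered animals correlated in their deviations by −0.12, −0.06 and −0.03 in KO against WT, by 0.17, 0.21 and −0.03 in Het against WT and by −0.14, −0.11 and 0.07 in KO against Het, so the numbers were not taken to pair the animals.

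In the meiotic and mitotic core (Ccna1, Ccna2, Ccnb1, Ccnb2, Cdk1 and Cdk2) the log2 fold change in KO against WT reversed for Ccna1 without WT replicate 1 (−0.18), for Ccnb1 without KO replicate 2 (0.43), and for Ccnb2 with DESeq2 (−0.0075) and without WT replicate 1 (−0.32). Outside the core, Cdk4 reversed without WT replicate 1 (−0.03), and Cdk16, at −0.0039 with limma, turned positive under edgeR (1.12), DESeq2 (1.11), a pseudocount of 5 (0.08) and 4 of the 6 fits with an animal left out (0.12 to 0.85). Leaving out 1 animal gave ranges of −0.18 to 1.74 for Ccna1, −0.998 to 0.43 for Ccnb1 and −0.32 to 0.34 for Ccnb2. With 3 animals per genotype, and the members' values differing more than 4-fold within a genotype for 10 of 31, a missed threshold does not show that a member was the same in both genotypes.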
